A study of Drosophila melanogaster with 12 samples.

Results

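The cytochrome P450 genes were taken as every gene with a probe whose annotated symbol is Cyp followed by a number and a lower case letter. This rule gave 88 probes for 85 genes, out of 14485 probes on the array. Cyp4g15, Cyp18a1 and Cyp4d1 have 2 probes each, and 3 of the symbols, Cyp6a15Psi, Cyp6a16Psi and Cyp6t2Psi, are those of pseudogenes. The genes fall into 20 number families, of which Cyp6 with 25 probes and Cyp4 with 24 are the main ones. By chromosome arm, 35 genes lie on 2R, 16 on 3R, 14 on X, 13 on 2L and 6 on 3L, and Cyp6a16Psi was not matched to the gene table.

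Cytochrome P450s are haem enzymes that insert oxygen into small lipophilic molecules, with electrons supplied by a reductase in the endoplasmic reticulum or by a ferredoxin in mitochondria. In insects the family is known for breaking down plant toxins and insecticides, for making and inactivating ecdysteroid hormones, and for making the hydrocarbons of the cuticle. Many of its genes stand in tandem clusters of close relatives. The P450s of the insect CYP2, CYP3 and CYP4 clans are mostly microsomal, and those of the mitochondrial clan sit in mitochondria.

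RNA of whole Drosophila melanogaster embryos at stage 8 to 9, aged 3.5 to 4.5 h and kept at 25 °C, was hybridised to 2-colour arrays. Mothers carrying simGal4, a driver active in cells of the ventral midline, were crossed to males carrying a UAS construct, so that all groups, controls included, carry the driver and a UAS transgene. The construct was EnRep, DichaeteWT (the wild type form of Dichaete, a SoxB transcription factor) or HMG-minus, with 4 biological replicates each, and every array set 1 construct sample against embryos expressing UAS GFP. Dominant negative is the design text's term for the constructs, and the labels do not expand EnRep or HMG-minus or say whether arrays shared GFP RNA, so ratios of different constructs may share control samples. All 3 constructs were set against UAS GFP embryos, so a difference shared by all 3 cannot be told apart from one particular to those controls. The construct carried Cy3 on replicates 1 and 2 and Cy5 on replicates 3 and 4. The midline is a small part of a whole embryo, and in such samples fewer cells of a type and less RNA per cell cannot be told apart.

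All values below are log2 ratios of construct over GFP, and a probe was called when its adjusted p in limma, over all 14485 probes, was under 0.05. The ratios are compressed by an offset added to both channels, so folds understate the change of dim probes. Median Cy3 intensities ran from 247 to 433 between arrays over local backgrounds of 71 to 130, and median Cy5 intensities from 280 to 421 over 112 to 196. Of the 88 P450 probes, 23 were accepted by the spot finder in both channels on all 12 arrays, 58 on at least 10, and 8 on 6 or fewer. D, the gene of Dichaete itself, stood at 0.37 with EnRep (adjusted p = 0.0554), rose with DichaeteWT (0.47, adjusted p = 0.0208) and stood at 0.19 with HMG-minus (adjusted p = 0.317), with single arrays from -0.28 to 1.09. A list of 18 later muscle and cuticle genes was read as a sign of embryo age. Its median was 0.92 on EnRep replicate 4 and 0.85 on DichaeteWT replicate 2, against -0.43 to 0.15 on the other arrays. The residuals of those 2 arrays correlated at 0.67 over all probes. Other pairs also correlated, EnRep replicate 2 with DichaeteWT replicate 3 at 0.51 and EnRep replicate 1 with DichaeteWT replicate 4 at 0.50. The list's 9 muscle genes (12 probes) were high on 3 arrays. Their medians were 1.90 on EnRep replicate 4, 0.89 on DichaeteWT replicate 1 and 1.29 on DichaeteWT replicate 2, against -0.95 to 0.12 on the other 9. The list's 9 cuticle genes (10 probes) had medians of 0.62, -0.12 and 0.40 on those 3 arrays. Within this list, DichaeteWT replicate 1 was thus high in the median of the muscle genes and not in that of the cuticle genes. A list of 7 maternal genes (8 probes) had a median of 0.53 with HMG-minus, from 0.31 to 0.65 on its single arrays. Its medians with EnRep and DichaeteWT were 0.00 and 0.02. With HMG-minus all 8 probes of the maternal list were above 0 and 2 were called higher, beside 0.421% of all probes. Of these 8, 7 had an unadjusted limma p under 0.05, beside 13% of all probes. None of the midline list's 11 measured genes was called with any construct. At an unadjusted p under 0.05 were 3, 3 and 1 of its 12 probes, beside 14.1%, 15.6% and 13% of all probes.

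Of the whole P450 family, Cyp4p2 alone was lower than in GFP embryos with all 3 constructs at the threshold. Cyp28d2 joined it with HMG-minus, Cyp4e2 and Cyp317a1 rose with DichaeteWT, and the other 84 probes were called in no comparison. With EnRep, 1 of 88 P450 probes was called, beside 0.753% of all probes, and none was higher and 1 lower beside 0.428% and 0.324%. With DichaeteWT it was 3 of 88 beside 0.863%, with 2 higher and 1 lower beside 0.38% and 0.483%. With HMG-minus it was 2 of 88 beside 0.856%, with none higher and 2 lower beside 0.421% and 0.435%. With the 3 arrays of high muscle genes left out, a choice made after seeing the data, Cyp4p2 was called with all 3 constructs and Cyp28d2 and Cyp6a16Psi with HMG-minus, and neither Cyp4e2 nor Cyp317a1 was called on the 2 DichaeteWT arrays that remained. Cyp4p2 and Cyp28d2 were singled out with earlier results of these data known, so their tests describe them and add no independent evidence. A level particular to the GFP embryos would give Cyp4p2 the same pattern, and this was not tested.

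**Figure D1:**
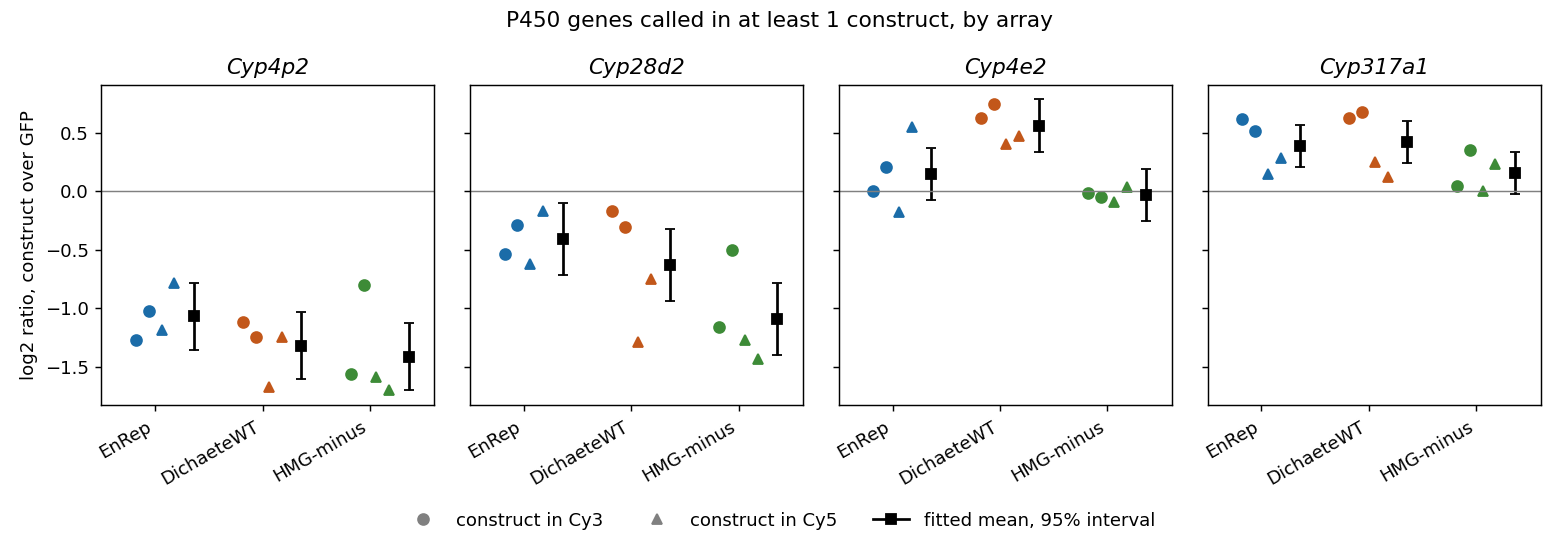
Log2 ratio of construct over GFP for the 4 P450 genes called in at least 1 construct, with 1 point per array, circles for the construct in Cy3, triangles for Cy5, and squares for the fitted mean with its 95% interval. Cyp4p2 lies between -1.70 and -0.79 on the 12 arrays, and Cyp28d2 between -1.43 and -0.17.

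Cyp4p2 (CG1944, arm 2R, probe 1000043574) encodes a P450 of the Cyp4 family, whose members elsewhere act mainly on fatty acids and other lipids. With EnRep its log2 ratio was -1.27, -1.03, -1.19 and -0.79 on replicates 1 to 4. With DichaeteWT it was -1.11, -1.24, -1.68 and -1.25, and with HMG-minus -1.56, -0.80, -1.59 and -1.70. All 12 values were below 0, the 3 groups overlapped, and on every array Cyp4p2 had the lowest ratio of the 88 P450 probes.

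The fitted means of Cyp4p2 were -1.07 (SE 0.132, n = 4 arrays, limma adjusted p = 0.0022) with EnRep, -1.32 (adjusted p = 0.000567) with DichaeteWT and -1.41 (adjusted p = 0.000261) with HMG-minus. As folds, Cyp4p2 was 2.10, 2.50 and 2.66 times higher in GFP embryos, or 52.3%, 59.9% and 62.4% lower with the construct. Among all 14485 probes it ranked 4th from the lowest with EnRep, 3rd with DichaeteWT and 16th with HMG-minus. The 2 dye orientations gave -1.15 in Cy3 and -0.99 in Cy5 with EnRep, -1.18 and -1.46 with DichaeteWT, and -1.18 and -1.64 with HMG-minus. The gene was therefore below GFP in both orientations of every construct. Leaving out any single array kept the 3 calls, with fitted means from -1.21 to -0.95 in EnRep, -1.38 to -1.22 in DichaeteWT and -1.61 to -1.32 in HMG-minus. The calls were lost with a trended and robust variance (adjusted p = 0.340, 0.212 and 0.228), and the EnRep call when its 4 arrays were fitted alone (adjusted p = 0.0668).

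The scanner intensities behind these ratios were also read. The spot of Cyp4p2 was accepted in both channels on 12 of 12 arrays. Net of background, its GFP channel read 341 to 797, and its construct channel read 193 to 297 with EnRep, 193 to 243 with HMG-minus and as little as 89 with DichaeteWT. Before any normalisation the construct channel held 44.4% to 56.6% of the GFP channel on the EnRep arrays, 22.6% to 44.8% on the DichaeteWT arrays and 26.4% to 53.1% on the HMG-minus arrays. The construct channel was below the GFP channel on every array before normalisation.

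**Figure D2:**
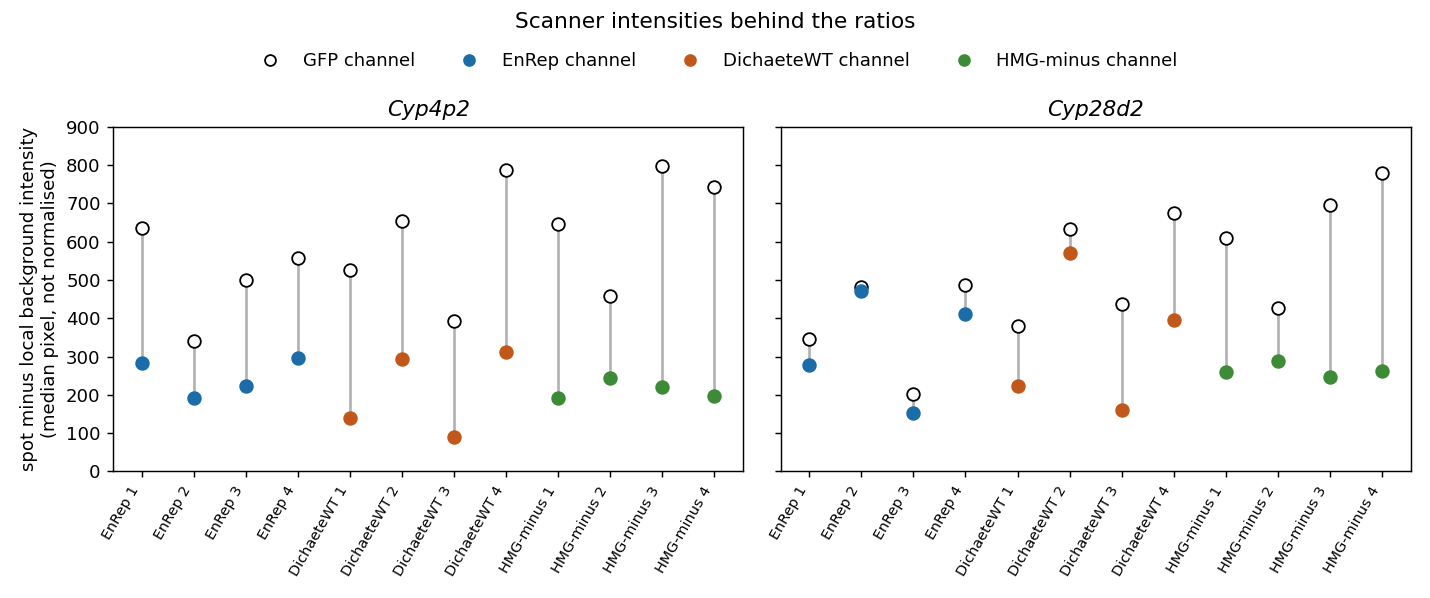
Net spot intensity (median pixel, foreground minus local background, not normalised) of Cyp4p2 and Cyp28d2 on each of the 12 arrays, with open circles for the GFP channel and filled circles for the construct channel. The filled circle of Cyp4p2 lies below its open circle on every array, where GFP reads 341 to 797, and that of Cyp28d2 reads 152 to 570 against 203 to 780.

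Cyp4p2 stands first in a tandem run of 3 genes with Cyp4p1 and Cyp4p3, its closest relatives by name. Cyp4p1 (CG10842) had fitted means of -0.09, -0.07 and -0.40 with EnRep, DichaeteWT and HMG-minus (adjusted p = 0.853, 0.864 and 0.317). Its single arrays ran from -0.93 on DichaeteWT replicate 3 to 0.54 on DichaeteWT replicate 2. Cyp4p3 (CG10843) had 0.04, 0.08 and 0.02 (adjusted p = 0.932, 0.804 and 0.967), from -0.63 to 0.36 on single arrays. Neither neighbour was called, although the 95% interval of Cyp4p1 with HMG-minus ran from -0.75 to -0.05. Close relatives can share hybridisation signal, and that was not tested for these probes.

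Of the 3 genes of the run Cyp4p2 alone was called, and the differences between the 3 genes were not tested. Within 5 genes on either side of Cyp4p2, 6 of 10 genes had a probe, and their 7 probes lay between -0.40 and 0.15 over the 3 constructs, with none called. Those genes include hig, which encodes a secreted protein of synapses, VhaAC45, an accessory subunit of the vacuolar proton pump, and Tsen15, a subunit of the tRNA splicing endonuclease.

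**Figure D3:**
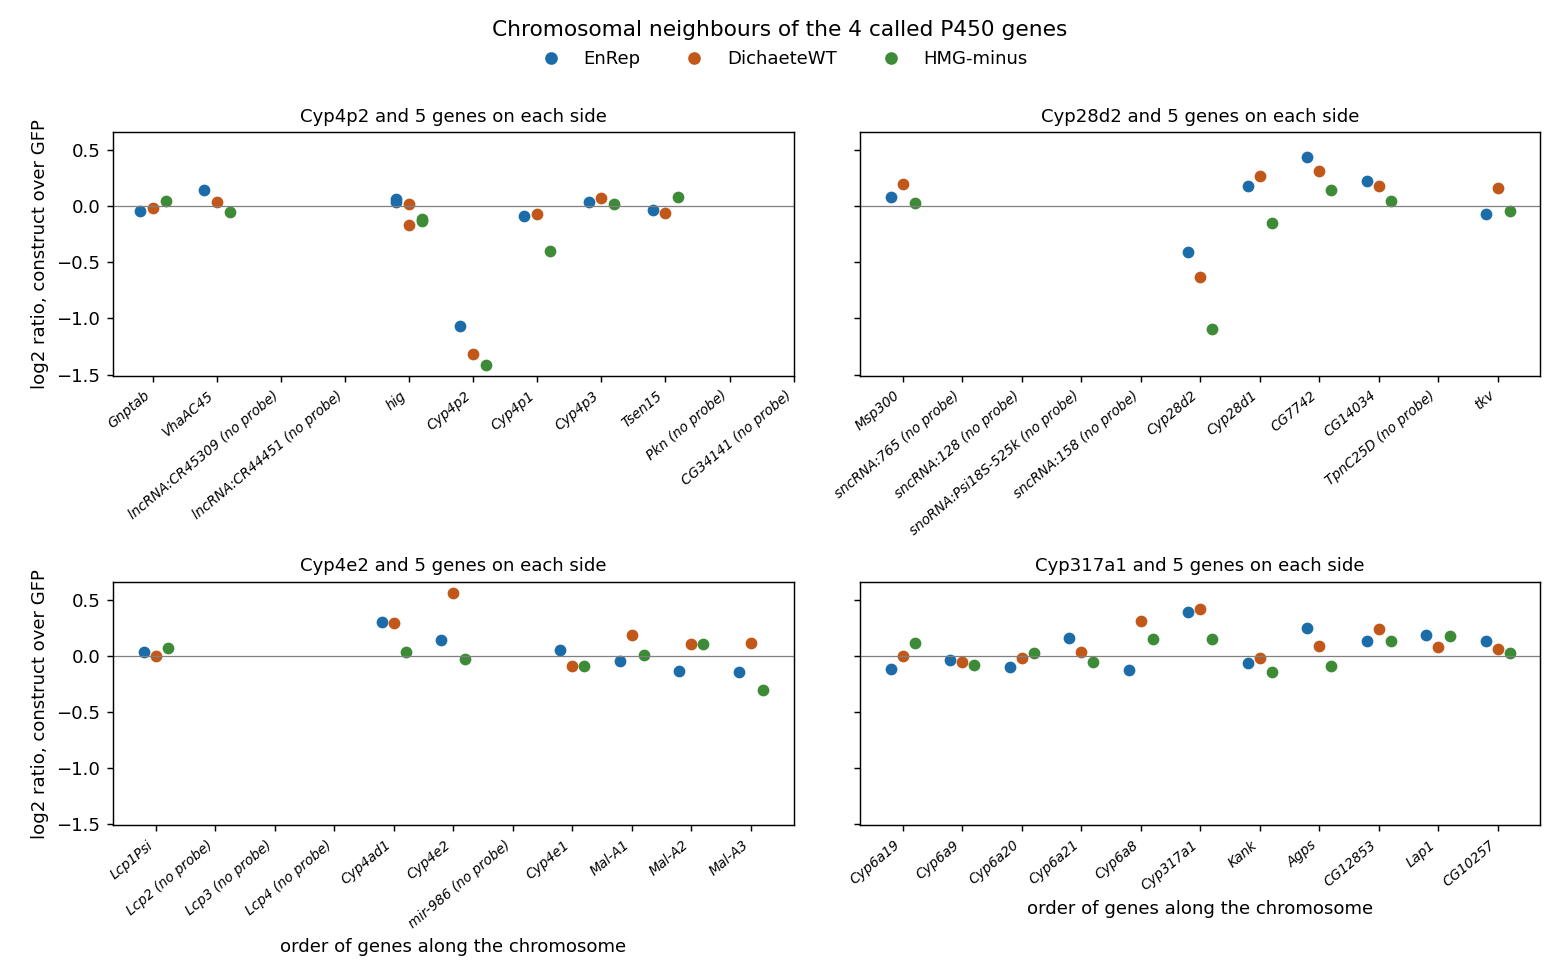
Fitted log2 ratio of construct over GFP for Cyp4p2, Cyp28d2, Cyp4e2 and Cyp317a1 and for the 5 genes on each side in chromosomal order (not to distance), with 1 colour per construct and unmeasured genes marked. No neighbour was called, and the neighbours of Cyp4p2 lie between -0.40 and 0.15.

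Cyp28d2 (CG6081, arm 2L, probe 1000031882) belongs to the Cyp28 family, whose relatives in the cactus-feeding fly Drosophila mettleri are induced by plant alkaloids. With HMG-minus its log2 ratio was -1.16, -0.50, -1.27 and -1.43 on replicates 1 to 4. With DichaeteWT it was -0.17, -0.30, -1.29 and -0.75, and with EnRep -0.54, -0.29, -0.62 and -0.17. All 12 arrays were below 0, and the range of DichaeteWT spanned nearly that of both other groups.

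Cyp28d2 fell with HMG-minus, to a fitted mean of -1.09 (SE 0.142, n = 4, limma adjusted p = 0.0039), which is 53.0% lower than GFP and 28th from the lowest of all probes. The means with DichaeteWT (-0.63, adjusted p = 0.0667) and EnRep (-0.41, adjusted p = 0.236) did not pass. The HMG-minus call ended with a trended and robust variance (adjusted p = 0.0610). Without HMG-minus replicate 4 the HMG-minus mean was -1.04 and no longer passed (adjusted p = 0.0526), whereas without EnRep replicate 4 the DichaeteWT mean of -0.63 did (adjusted p = 0.0235). With DichaeteWT the 2 arrays of the construct in Cy3 averaged -0.24 and the 2 in Cy5 -1.02. With HMG-minus those means were -0.83 and -1.35, and with EnRep -0.42 and -0.40. The raw construct channel held 33.5% to 67.7% of the GFP channel with HMG-minus, 36.8% to 90.0% with DichaeteWT and 74.9% to 97.9% with EnRep. The spot was accepted in both channels on 12 of 12 arrays. The maternal list stood above GFP on the same 4 HMG-minus arrays, and its part in the result was not tested.

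The gene next to Cyp28d2 is its relative Cyp28d1 (CG10833), whose fitted means were 0.18, 0.27 and -0.15 with EnRep, DichaeteWT and HMG-minus, none of them called (adjusted p = 0.456, 0.236 and 0.591). Its probe was dim and was accepted in both channels on 3 of 12 arrays. Around Cyp28d2, 5 of 10 neighbouring genes had a probe, between -0.15 and 0.44, and none was called. They include tkv, a type I receptor for the morphogen Dpp, and Msp300, a nesprin that links nuclei to the cytoskeleton. The other 2 genes of the family were near 0, with Cyp28a5 at 0.16, 0.14 and 0.07 and Cyp28c1 at 0.03, -0.05 and -0.11.

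Cyp4e2 (CG2060, arm 2R, probe 1000033798), another Cyp4 gene, rose with DichaeteWT. Its log2 ratio there was 0.62, 0.74, 0.40 and 0.47, all 4 above the fitted means of the other constructs, for a mean of 0.56 (SE 0.103, n = 4, limma adjusted p = 0.0299). This corresponds to 1.47-fold. With EnRep it was -0.00, 0.20, -0.18 and 0.55 (mean 0.14, adjusted p = 0.558), and with HMG-minus -0.01, -0.05, -0.09 and 0.04 (mean -0.03, adjusted p = 0.946). The HMG-minus arrays did not overlap the DichaeteWT arrays, while EnRep replicate 4 did. Before normalisation the construct channel held 103.2% to 185.4% of the GFP channel with DichaeteWT. The lowest share was on replicate 1, at 447 against 433 net of background. With EnRep the construct channel held 112.9% to 140.4%, and with HMG-minus 90.8% to 108.7%.

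The call of Cyp4e2 rested on all 4 DichaeteWT arrays. Without DichaeteWT replicate 1, 2, 3 or 4 the mean was 0.55, 0.50, 0.61 or 0.58 and the adjusted p 0.153, 0.142, 0.0788 or 0.0743. It also missed the threshold without HMG-minus replicate 3 (adjusted p = 0.0528) or 4 (0.0562), and with no dye term (0.0689) or a trended and robust variance (0.0801). The highest value of EnRep and the 2 highest of DichaeteWT came from the 3 arrays on which the muscle genes were high. With EnRep replicate 4 and DichaeteWT replicate 2 left out the mean with DichaeteWT was 0.52 (adjusted p = 0.0183), and with DichaeteWT replicate 1 left out as well it was 0.49 and not called (adjusted p = 0.127). Cyp4e2 stands between Cyp4ad1, at 0.30, 0.30 and 0.03 with EnRep, DichaeteWT and HMG-minus, and Cyp4e1, at 0.05, -0.09 and -0.09, and none of its 6 measured neighbours was called.

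Cyp317a1 (CG17453, arm 2R, probe 1000042093), the only member of its number family, also rose with DichaeteWT. Its log2 ratio was 0.63, 0.68, 0.25 and 0.12 (mean 0.42, SE 0.0827, n = 4, limma adjusted p = 0.0389), which is 1.34-fold. With EnRep it was 0.62, 0.51, 0.14 and 0.28 (mean 0.39, adjusted p = 0.0561), just short of the threshold, and with HMG-minus 0.04, 0.35, -0.00 and 0.23 (mean 0.15, adjusted p = 0.467). The DichaeteWT and EnRep arrays overlapped throughout. The spot of Cyp317a1 was accepted in neither channel on DichaeteWT replicate 4 and HMG-minus replicate 2. Its GFP channel read 83 to 287 net of background, over local backgrounds of 71 to 189. With accepted spots only, the DichaeteWT mean was 0.48 and was not called (limma adjusted p = 0.0593).

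With the construct in Cy3 the Cyp317a1 means were 0.65 with DichaeteWT and 0.57 with EnRep, and with the construct in Cy5 they were 0.19 and 0.21. The 2 DichaeteWT arrays in Cy3 were also those of high muscle genes, and with these and EnRep replicate 4 left out the mean was 0.29 (adjusted p = 0.388). The DichaeteWT call was lost in 18 of 26 alternatives, among them the omission of any 1 DichaeteWT array (adjusted p = 0.191, 0.158, 0.108 and 0.0686 without replicates 1 to 4), of EnRep replicate 1, 2 or 3 (0.0583, 0.0578 and 0.0575) and of HMG-minus replicate 3 or 4 (0.0689 and 0.0543). Conversely, Cyp317a1 was called with EnRep when DichaeteWT replicate 3 (0.0478) or HMG-minus replicate 1 (0.0333) was left out. It ends a run of 9 P450 genes, and its 10 neighbours, all measured, lay between -0.14 and 0.31, with none called.

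Tests of the differences between constructs, each construct measured against GFP on its own arrays, called no P450 probe. For DichaeteWT minus EnRep and HMG-minus minus EnRep, 0.0207% and 0.0276% of all probes were called, and for HMG-minus minus DichaeteWT 0%. At an unadjusted p under 0.05 the P450 probes numbered 3, 3 and 8 (3.41%, 3.41% and 9.09%), beside 4.46%, 6.85% and 5.27% of all probes. Cyp28d2 differed by -0.68 between HMG-minus and EnRep (95% interval -1.12 to -0.25, adjusted p = 0.591). Cyp4e2 differed by -0.59 between HMG-minus and DichaeteWT (95% interval -0.90 to -0.27, adjusted p = 0.627). For Cyp4p2 the differences were -0.25, -0.35 and -0.09, with intervals of -0.66 to 0.15, -0.75 to 0.06 and -0.50 to 0.31. The 3 intervals of Cyp4p2 include 0, so its order across constructs was not resolved.

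**Figure D4:**
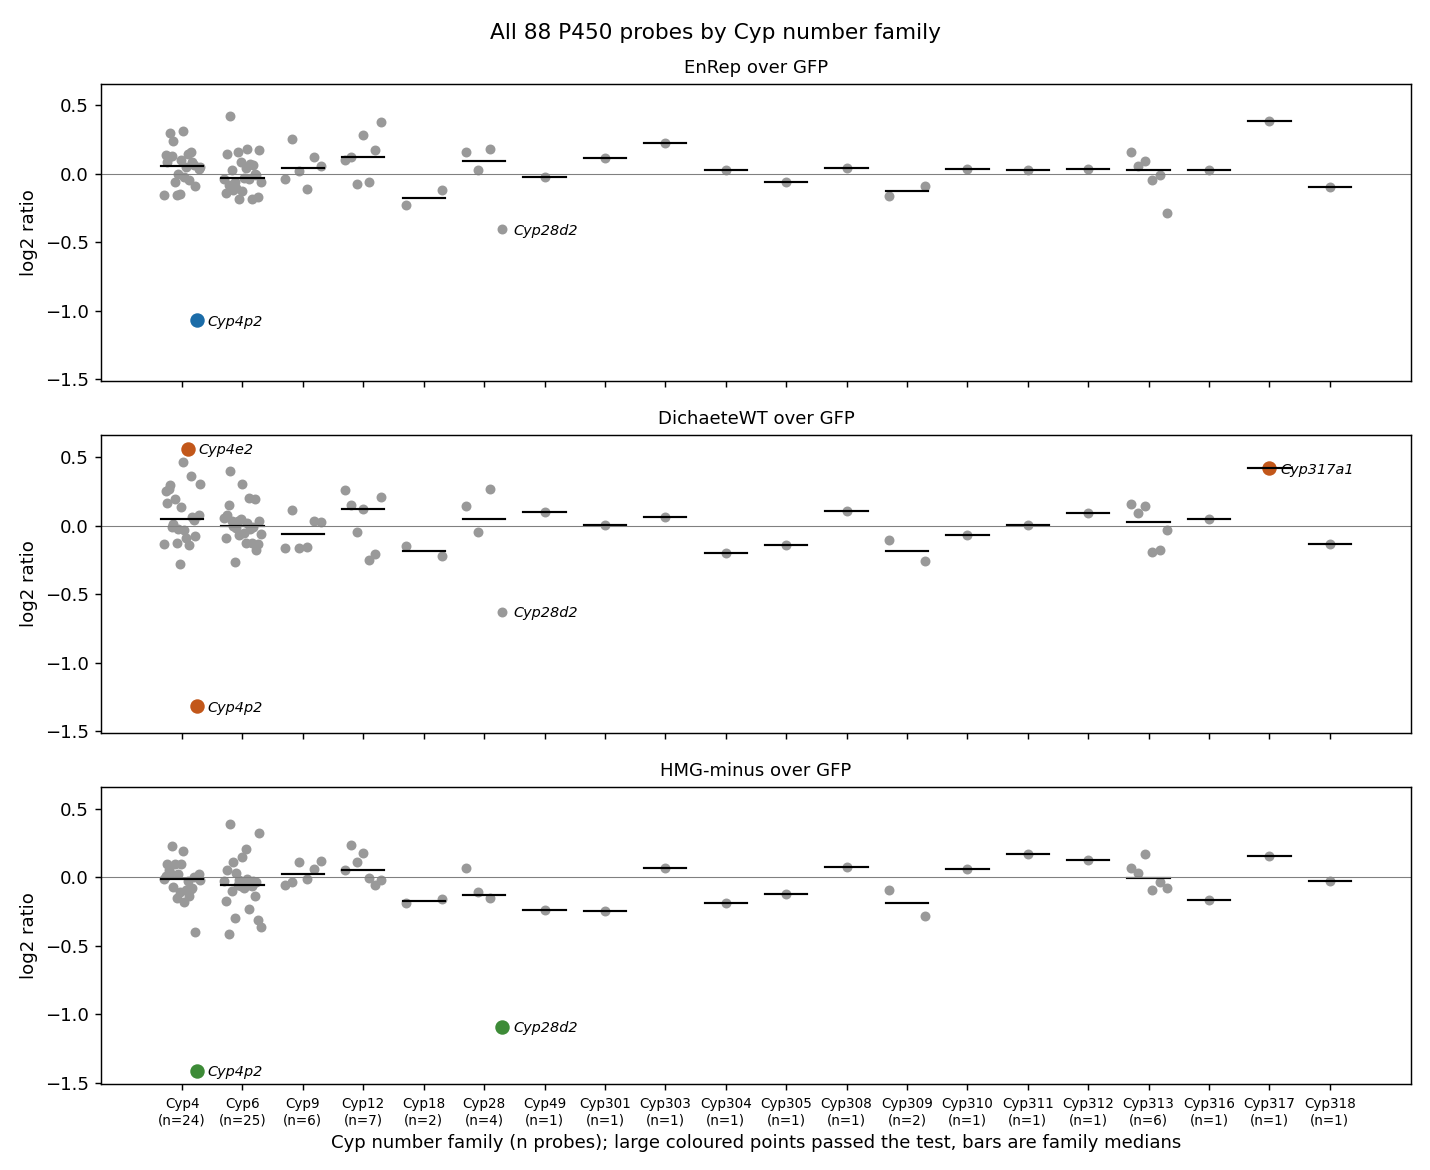
Fitted log2 ratio of construct over GFP for all 88 P450 probes by Cyp number family, with 1 panel per construct, bars at family medians and large coloured points for called probes. Apart from Cyp4p2 and Cyp28d2 the probes lie between -0.41 and 0.56.

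As a family the P450 genes were centred near 0. Their median was 0.03 with EnRep, 0.01 with DichaeteWT and -0.03 with HMG-minus, beside 0.01, 0.01 and -0.00 over all probes. Their interquartile ranges of 0.19, 0.26 and 0.18 compared with 0.19, 0.20 and 0.18 over all probes. With HMG-minus 34 of 88 P450 probes were above 0, which is 38.6% beside 49.3% of all probes, and with EnRep and DichaeteWT 49 and 46 were. At an unadjusted p under 0.05 there were 10, 17 and 15 P450 probes, which is 11.4%, 19.3% and 17.0% beside 14.1%, 15.6% and 13% of all probes. On single arrays the P450 median ran from -0.08 to 0.08.

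Without Cyp4p2 and Cyp28d2 the other 86 probes spanned -0.28 to 0.43 with EnRep, -0.28 to 0.56 with DichaeteWT and -0.41 to 0.39 with HMG-minus. In each construct Cyp28d2 was therefore the next P450 probe after Cyp4p2. On single arrays Cyp28d2 was the second lowest P450 on 6 of the 12 arrays, among them 3 of the 4 HMG-minus arrays. On the remaining arrays it ranked between 4th and 22nd from the lowest.

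Counts of probes on the same side of 0 on all 4 arrays of a construct are given beside the same share of all probes. Above GFP on 4 of 4 arrays were 11 P450 probes with EnRep (12.5%, beside 9.35% of all probes), 8 with DichaeteWT (9.09%, beside 7.19%) and 5 with HMG-minus (5.68%, beside 8.22%). Below GFP on 4 of 4 arrays were 5 with EnRep (5.68%, beside 7.15%), 8 with DichaeteWT (9.09%, beside 7.08%) and 12 with HMG-minus (13.6%, beside 7.85%). On 12 of 12 arrays Cyp4p2, Cyp28d2 and Cyp4d2 were below GFP, where 0.663% of all probes were, and Cyp12c1 was above, where 0.58% were.

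Cyp4d2 and Cyp12c1 kept their side of 0 on every array with much smaller ratios than Cyp4p2. Cyp4d2 (CG3466, arm X), a Cyp4 gene, had means of -0.15, -0.28 and -0.11 with EnRep, DichaeteWT and HMG-minus, from -0.52 to -0.01 on single arrays, and the smallest adjusted p was 0.110 with DichaeteWT. Cyp12c1 (CG4120, arm 3L), of the mitochondrial clan, had 0.28, 0.12 and 0.18, from 0.06 to 0.42 on single arrays, and the smallest adjusted p was 0.0891 with EnRep. Neither passed the threshold in these fits.

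In the Cyp4 family the medians over 24 probes were 0.06, 0.05 and -0.01 with EnRep, DichaeteWT and HMG-minus. Cyp4d21, a sex-specific enzyme also called sxe1, stood at 0.31, 0.46 and 0.19, with an adjusted p of 0.119 for DichaeteWT. Cyp4ae1 stood at 0.13, -0.01 and 0.23, and its 4 HMG-minus arrays ran from 0.13 to 0.29 and were not called. Cyp4g1, the enzyme of oenocytes that makes cuticular hydrocarbons, stood at 0.16, 0.36 and -0.09, none called. Its DichaeteWT arrays were 0.91 and 1.06 with the construct in Cy3 and -0.13 and -0.38 with it in Cy5, so the orientations did not agree in sign. The 2 high arrays were those of high muscle genes, whose part in the value was not tested. Cyp4e3, which has been tied to permethrin tolerance, stood at -0.05, -0.15 and -0.14.

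In the Cyp6 family the medians over 25 probes were -0.03, -0.00 and -0.06, and with HMG-minus 7 of 25 were above 0. Cyp6g1, whose overexpression gives resistance to DDT, stood at 0.07, -0.02 and -0.06, and Cyp6a2, an enzyme inducible by insecticides and drugs, at -0.06, -0.27 and -0.29 (smallest adjusted p = 0.193). Cyp6a17, which is needed for the temperature preference of flies, had 0.43, 0.40 and 0.39 and was above GFP on 11 of 12 arrays, but its probe was accepted in both channels on 4 arrays and its smallest adjusted p was 0.192. Cyp6v1 had 0.17, 0.04 and 0.32 (0.168 with HMG-minus). The pseudogene Cyp6a16Psi had -0.08, 0.15 and -0.41, below GFP on all 4 HMG-minus arrays with -0.23, -0.74, -0.47 and -0.20 (adjusted p = 0.112). No Cyp6 probe was called.

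**Figure D5:**
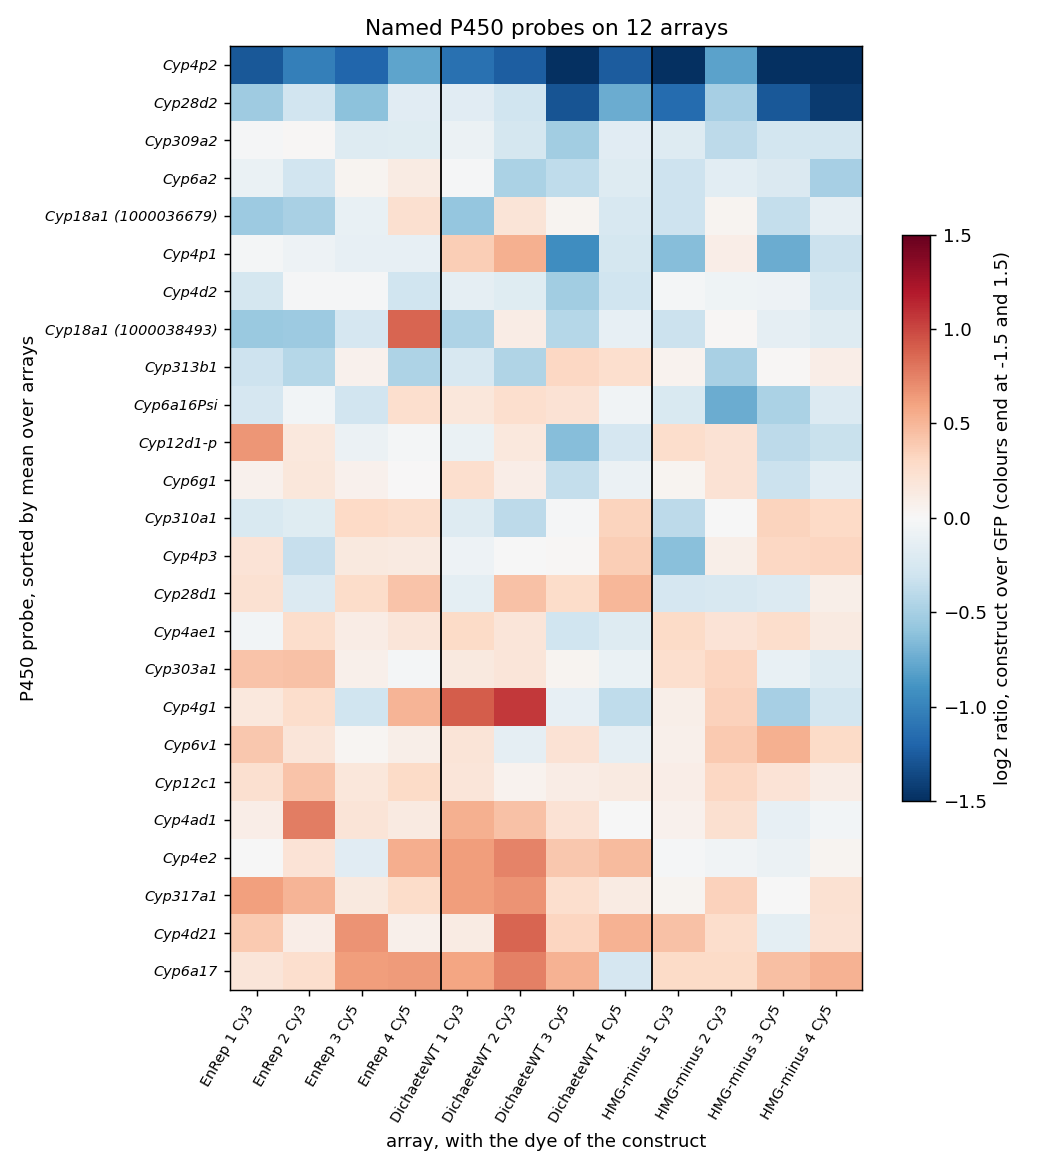
Log2 ratio of construct over GFP for the 25 named P450 probes (rows, sorted by mean) on the 12 arrays (columns, with the dye of the construct), from blue below GFP to red above, with the colour scale ending at -1.5 and 1.5. Cyp4p2 is blue on all 12 arrays, while most other rows change sign between arrays.

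The 9 genes of the mitochondrial clan had medians of 0.11, 0.10 and -0.01. They include Cyp12d1-p, of a locus tied to DDT resistance, at 0.18, -0.21 and -0.06, and its near-identical neighbour Cyp12d1-d at -0.06, -0.25 and -0.01, whose probes could share signal. Cyp12d1-p was above GFP with the construct in Cy3 and below it in Cy5 in all 3 constructs (0.41 and -0.06, 0.03 and -0.45, 0.24 and -0.36). Cyp301a1, which is needed for the adult cuticle, stood at 0.11, 0.00 and -0.24. Among the 5 probes of the CYP2 clan the medians were -0.06, -0.15 and -0.16. They include Cyp303a1, required for the development of sensory bristles, at 0.23, 0.07 and 0.07, with 0.43 and 0.44 on EnRep replicates 1 and 2 but 0.08 and -0.03 on replicates 3 and 4 (adjusted p = 0.154).

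Cyp18a1 of the CYP2 clan inactivates ecdysteroids, the moulting hormones, by hydroxylation. Its first probe (1000036679) stood at -0.23, -0.15 and -0.19 and its second (1000038493) at -0.12, -0.23 and -0.16 with EnRep, DichaeteWT and HMG-minus. All 6 means were below 0 and none was called, the smallest adjusted p being 0.477. EnRep replicate 4 stood apart from the other EnRep arrays in both probes, at 0.24 and 0.87 against -0.56 to -0.11. That array also had the highest median of the later muscle and cuticle list, and its part in the value was not tested.

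None of the remaining named genes was called. Cyp310a1 stood at 0.04, -0.07 and 0.06, with the construct in Cy3 at -0.20, -0.30 and -0.20 and in Cy5 at 0.28, 0.16 and 0.32. Cyp313b1 stood at -0.28 with EnRep (adjusted p = 0.276), and at -0.03 and -0.08 with DichaeteWT and HMG-minus. Cyp309a2 stood at -0.09, -0.26 and -0.29 (smallest adjusted p = 0.115), below GFP on all 8 arrays of DichaeteWT and HMG-minus. Cyp311a1 was accepted in both channels on 0 of 12 arrays, and its values were 0.03, 0.00 and 0.17.

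Of the 85 P450 symbols in the gene table, 49 stand in 17 runs on the chromosome. Within a run each P450 gene lies at most 5 gene positions from the next, so other genes can stand between them. In 2 runs every probe was above 0 with all 3 constructs, Cyp4ac1 to Cyp4ac3 and Cyp12a5 with Cyp12a4, and in 1 every probe was below 0, Cyp309a1 with Cyp309a2. These runs were named after their values were seen. The Cyp4ac genes stood at 0.09 to 0.14 with EnRep, 0.17 to 0.27 with DichaeteWT and 0.01 to 0.10 with HMG-minus, and none was called. In the run of 9 that holds the Cyp6a genes and ends in Cyp317a1, 4, 5 and 5 probes were above 0, with a median of -0.03, 0.03 and 0.03.

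The P450 genes of ecdysteroid synthesis carry other symbols and lie outside the Cyp rule. Of a list of 8 such genes and partners, 3 were measured and none was called by limma, with 1 probe at an unadjusted p under 0.05 in each construct. The counts at that unadjusted p in this and the lists that follow stand beside the same 14.1%, 15.6% and 13% of all probes. sad, which adds a late hydroxyl group in the making of ecdysone, stood at -0.28, -0.15 and -0.21, sro, a dehydrogenase of the same pathway, at -0.11, -0.26 and -0.03, and dib, another late hydroxylase, at -0.02, -0.08 and -0.00. Of 10 ecdysone response genes 7 were measured on 13 probes, with 0 called and 4, 3 and 2 at an unadjusted p under 0.05 with EnRep, DichaeteWT and HMG-minus. The smallest p in the list belonged to Hr3, a nuclear receptor induced by ecdysone, at -0.38, -0.25 and -0.18, and to ftz-f1, the receptor that follows it, at 0.47, 0.00 and 0.23. Of 6 juvenile hormone enzymes 4 were measured, with none called and 0 at an unadjusted p under 0.05. Jhe, the esterase that degrades the hormone, stood at 0.06, -0.11 and -0.12 and Jhedup at 0.10, 0.04 and 0.06.

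Of 14 genes for P450 redox partners and haem synthesis 8 were measured on 9 probes, and none was called, with 2, 3 and 1 at an unadjusted p under 0.05. Cyt-b5-r, a cytochrome b5-related gene, stood at 0.24, 0.41 and 0.05 (adjusted p = 0.0834 with DichaeteWT). Fdx1, a mitochondrial ferredoxin, stood at 0.18, -0.24 and -0.07, and its probe was accepted in both channels on 1 of 12 arrays. Of 8 regulators of the xenobiotic response all were measured and none was called, with 1, 0 and 1 at an unadjusted p under 0.05. Among them tgo, the partner of bHLH-PAS factors including Sim and Spineless, stood at -0.24, -0.15 and -0.20, and gce, a juvenile hormone receptor, at -0.10, -0.15 and -0.14. Lists of fat body, gut and Malpighian tubule, oenocyte and haemocyte genes, most of them main sites of P450 activity later in life, held 7, 8, 7 and 11 measured genes and 0 calls. At an unadjusted p under 0.05 they held 1, 0, 1 and 1 probes with EnRep, 3, 2, 2 and 0 with DichaeteWT and 0, 1, 1 and 3 with HMG-minus.

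Enzymes that conjugate the products of P450s in detoxification include the glutathione S-transferases. Of the 29 probes for 28 such genes, 2 fell with EnRep, 1 with DichaeteWT and 2 with HMG-minus, beside 0.324%, 0.483% and 0.435% of all probes, and none rose, beside 0.428%, 0.38% and 0.421%. GstD5 was lower with all 3 constructs, at -0.56 (adjusted p = 0.0021), -0.37 (0.0277) and -0.39 (0.0214), and its probe was accepted on 12 of 12 arrays. GstE14, which is required for ecdysteroid synthesis, was at -0.49 (0.0366), -0.36 (0.0961) and -0.47 (0.0374) and was accepted on 7 arrays. At an unadjusted limma p under 0.05 were 4, 9 and 6 of the 29 probes, beside 14.1%, 15.6% and 13% of all probes. With DichaeteWT these lay on both sides of 0, among them GstD10 at 0.41 and GstD8 at -0.28. The median over the 29 probes of the list was 0.00, 0.03 and -0.03.

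Most of these calls ended when any 1 of the construct's own arrays was left out. The GstD5 call with EnRep stayed in all 12 omissions of 1 array (highest limma adjusted p = 0.0246). In those omissions the GstD5 mean ran from -0.43 to -0.33 with DichaeteWT and from -0.42 to -0.36 with HMG-minus. The GstD5 call was kept in 24 of 26 alternatives with EnRep, 14 with DichaeteWT and 17 with HMG-minus, and the omission of any 1 of the construct's own arrays ended it with DichaeteWT (highest adjusted p = 0.176) and with HMG-minus (0.167). With DichaeteWT, leaving out HMG-minus replicate 3 (0.0503) or 4 (0.0562) also ended it. The GstE14 calls were kept in 9 of 25 alternatives with EnRep and 11 of 25 with HMG-minus, and they too ended without any 1 of the construct's own arrays (highest adjusted p = 0.205 and 0.270) and without DichaeteWT replicate 1 or 4 (0.0571 and 0.0564 for EnRep, 0.0569 and 0.0586 for HMG-minus). With HMG-minus the GstE14 call also ended without EnRep replicate 1 (0.0624) or 2 (0.0638).

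None of 35 UDP-glycosyltransferase genes was called by limma, and 5, 4 and 6 of their 35 probes had an unadjusted p under 0.05, beside 14.1%, 15.6% and 13% of all probes. Their medians were 0.06, 0.04 and -0.07, with 27, 23 and 9 of 35 probes above 0 beside 53.1%, 51.8% and 49.3% of all probes. Ugt35C1 stood at 0.02, 0.02 and -0.30 (adjusted p = 0.0928 with HMG-minus) and Ugt35E2 at 0.38, 0.14 and -0.19 (adjusted p = 0.0966 with EnRep).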

How the data were processed

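The deposited files give, per the file headers, the median pixel intensity of foreground and local background per spot in Cy3 and Cy5, not normalised, with an accepted flag from the spot finder. A deposited table holds log2 ratios of construct over GFP made by the authors. The submitters' processing notes name limma, and the background correction and normalization of these log2 values are not given in the sources used here. Their array medians run from -0.034 to 0.019.

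In R 4.3.3 with limma 3.58.1, intensities were corrected by normexp (offset 50, all 18240 spots), normalised by global loess (span 0.3) on the 14569 spots of the value table, turned to construct over GFP and averaged over spots of 1 reporter, 42 being printed more than once. The fit over 12 arrays held 3 construct means and a dye term, with empirical Bayes variances (8 residual and 4.6 prior degrees of freedom) and Benjamini-Hochberg adjustment over 14485 probes. The median SE of a construct mean was 0.097. Precision is limited by the 12 arrays. The fit was tested on simulated data. Symbols come from the platform annotation, which can be old (12574 probes with 1 symbol, 96 with several, 1815 with none), and 11928 probes matched a RefSeq table (Release 6 plus ISO1 MT) used for names, arms and gene order.

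Named P450 genes were Cyp4p2, Cyp28d2, every called member and, for each construct, the 4 members of smallest p on each side of 0. Members within 5 genes of Cyp4p2 or Cyp28d2 were also named, as were Cyp4g1, Cyp18a1, Cyp6g1, Cyp6a2, Cyp12d1-p and Cyp310a1. In the lists of other enzymes, hormone response genes and regulators, the 2 genes of smallest p were named. No gene was named from the tissue, midline, muscle and cuticle, or maternal lists. Any other gene named was chosen after its values were seen. Members and lists were chosen with earlier results of these data known. The labels do not say that replicate numbers pair arrays across constructs, and the fit did not pair them. Same-number correlations of deviations ran from -0.64 to 0.24. The deviations had construct means and the dye term removed, and the dye follows replicate number, so these correlations cannot exclude pairing.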

Additional observations from a re-analysis of the deposited data

Results flagged for a closer look

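In 6 of 75 groups of 4 arrays (25 named probes in 3 constructs), 1 array lay far from the other 3, a gap that chance gives in about 1 in 20 groups. Cyp4p2 was -0.801 on HMG-minus replicate 2, against -1.70 to -1.56 on the other 3 arrays, so the array nearest 0 was the one that stood apart. Its tandem neighbour Cyp4p3 was -0.348 on EnRep replicate 2, against 0.139 to 0.209. Cyp28d1, the neighbour of Cyp28d2, was 0.0935 on HMG-minus replicate 4, against -0.251 to -0.199. Cyp4ad1, the neighbour of Cyp4e2, was 0.763 on EnRep replicate 2, against 0.100 to 0.196. Cyp313b1 was -0.483 on HMG-minus replicate 2, against 0.0178 to 0.101, and Cyp4d2 was -0.273 on HMG-minus replicate 4, against -0.0732 to -0.0351.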

How the results depend on the processing

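Of the named genes, 30 construct means and 6 differences between constructs were recomputed (Cyp4p2, Cyp28d2, every called P450 and those of smallest p, GstD5 and GstE14), and none changed its side of 0 in the settings that gave a value, out of 12 processing settings, 12 omissions of 1 array and 2 joint omissions. The other means named, many of them near 0, were not recomputed. With EnRep the count of called P450 probes moved from 1 to 2 (median centring, or the dimmest 25% of probes left out), 4 (print-tip loess), 5 (array weights) and 0 (own 4 arrays alone, or a trended and robust variance). With DichaeteWT it moved from 3 to 1 (no dye term), 4 (print-tip loess), 2 (spots accepted in both channels, deposited ratios, or own 4 arrays alone), 5 (array weights) and 0 (trended and robust variance), and median centring kept 3 with Cyp28d2 in place of Cyp317a1. With HMG-minus it moved from 2 to 4 (print-tip loess), 10 (array weights) and 0 (trended and robust variance). Leaving out 1 array gave 1 to 2, 1 to 4 and 1 to 2, and the 3 differences between constructs stayed at 0 throughout. With the replicate block, a pairing that the labels do not state, the counts were 1, 2 and 2, with Cyp317a1 in DichaeteWT lost (adjusted p = 0.0926). With EnRep replicate 4 and DichaeteWT replicate 2 left out together, chosen after seeing the data, they were also 1, 2 and 2, and with DichaeteWT replicate 1 left out as well 1, 1 and 3.

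With the trended and robust variance Cyp4p2 stayed at -1.07, -1.32 and -1.41 but was no longer called (adjusted p = 0.340, 0.212 and 0.228), nor was Cyp28d2 with HMG-minus at -1.09 (0.0610). Cyp4p2 with EnRep was -1.07 (0.0668) on its own 4 arrays. Cyp28d2 was called with DichaeteWT under median centring (-0.68, 0.0253) and array weights (-0.53, 0.0371), and with EnRep under array weights (-0.50, 0.0330). The cause was not tested. Leaving out 1 array, Cyp28d2 ran from -0.72 to -0.46 with DichaeteWT and from -1.23 to -0.98 with HMG-minus.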
